A study of Homo sapiens with 24 samples.

Results

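The interaction between radiation and CB-839 was measured in SAS cells carrying wild-type (WT) NRF2. SAS is a line from a human oral squamous cell carcinoma. The measurement used 12 of the 24 RNA libraries, 3 in each of 4 groups: untreated WT cells, WT cells given CB-839 at 0.1 µM, WT cells given 4 Gy of X-rays, and WT cells given both. Drug or vehicle was given 24 h before irradiation, and irradiated cells were harvested for RNA 24 h later. For each gene the interaction is the log2 change with radiation in drug-treated cells minus the log2 change with radiation in cells without drug. This equals the CB-839 effect with radiation minus the CB-839 effect without. A value of 0 means that the combination gave the product of the fold changes of the single treatments. A positive value means a level above that product, and a negative value a level below it. The other 12 libraries hold the same 4 treatments in SAS cells with NRF2 E79Q, a form changed in the stretch that the repressor KEAP1 binds, and served to compare the interaction between genotypes.

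The labels do not give the vector or promoter behind the E79Q form, whether a genotype is a single clone, whether the drug stayed on after radiation, or when unirradiated cells were harvested. Separate cultures per replicate are not stated either, so p-values measure only the spread between these libraries, which may be technical. The study's text describes 12 irradiated samples, whereas labels and table hold 24 libraries, and it is not stated whether unirradiated libraries were made together with the irradiated ones. Radiation effects cannot be told apart from such a difference in preparation. A log-scale shift that was equal with and without drug would cancel in the interaction by its construction. In these bulk samples, fewer cells of a kind and less RNA per cell cannot be told apart.

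CB-839 blocks the conversion of glutamine into glutamate in mitochondria. Glutamate in turn supplies glutathione, proline, aspartate, serine and alanine synthesis, and is exported in exchange for cystine. Cells that run short of amino acids translate more of the transcription factor ATF4, which switches on amino acid transporters, synthetic enzymes and tRNA synthetases. X-rays break DNA and activate p53, whose best known target is the cell cycle inhibitor CDKN1A.

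Total counts were 16480586 to 21144628 in the 12 WT libraries and 14285084 to 23640197 in all 24. Levels are given as CPM, a gene's count per megaread of scaled library size. The summed marker levels in this paragraph are instead per megaread of the unscaled total count. Across genes the correlation of log2 CPM (Pearson's r) was 0.989 to 0.992 between WT libraries of a group and 0.979 to 0.989 between groups. Among WT libraries departures from the group's mean tracked the GC content of genes most closely in replicate 1 of the combined treatment (r = 0.26 across genes) and replicate 3 of CB-839 (r = 0.18). Some called interactions were lost without both of these libraries. Among the genes named here they were those of DDIT3, PGD, CHORDC1, AURKA, TPM1, MYH15, NOG, COL8A1, TAX1BP3, EDIL3, IDH2, INKA1 and INHBE. Replicate 2 of the combined treatment, at r = -0.17, was kept in that fit. Departures are from the group's own mean, so these values cannot show which library of a group was off. All 14 markers of squamous carcinoma cells passed the filter on low counts, and their summed level was 11636 to 11914 CPM in untreated cells, 8710 to 9254 with CB-839, 11796 to 12463 after radiation and 10839 to 11584 after both. Of 16 markers of leukocytes, endothelium and fibroblasts 7 passed the filter, with summed levels of all 16 of 15.3 to 17.1 CPM in untreated cells, 9.09 to 11.4 with CB-839, 11.8 to 18.0 after radiation and 9.55 to 10.9 after both. CB-839 lowered 2 of the 7 without radiation and 2 with it, none had a called interaction, the part of these markers in other results was not tested, and COL3A1, DCN and KDR were among those with no count in any of the 12 libraries.

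In WT cells 641 of 15956 genes tested departed from the product of both single effects. This is 4.02% of the genes, at an adjusted p under 0.05 in edgeR's quasi-likelihood test with Benjamini-Hochberg adjustment. The interaction was positive for 439 genes (2.75% of those tested) and negative for 202 (1.27%), the shares against which the counts in gene lists are to be read. Its estimate exceeded 2-fold for 73 of the 641, and 3109 genes had an unadjusted p under 0.05. Tested against a 1.5-fold change, 18 interactions were called, 18 positive and 0 negative. The median log2 interaction was 0.49 in the 439 and -0.54 in the 202, beside 0.00 over all genes. On the linear CPM scale, where the comparison is with the sum of the single changes, the sign was the same for 439 of the 439 and 196 of the 202.

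The most frequent pattern was a drug effect that was called without radiation and not with it. Of the 439 genes with a positive interaction, 353 were lower with CB-839 in unirradiated cells, where 8.44% of all genes were called lower. That drug effect was higher for 1014 and lower for 1346 of all genes, a balance that turned to 1907 higher and 1565 lower with offsets for GC content and gene length. Of the 353 genes, 284 were not called in irradiated cells, 39 were lower there too and 30 were higher. Among all genes 4.53% were lower and 4.99% higher there (9.53% in either direction). In another 64 of the 439 only the drug effect after radiation was called, and it was upward. Of the 202 genes with a negative interaction, 138 were higher with CB-839 without radiation (6.35% of all genes were), and 113 of these were not called with radiation. Read along the other axis, 174 of the 439 had no called radiation effect without drug and were higher after radiation with drug, and 65 were lower after radiation without drug and higher with it. Among all genes, radiation raised 9.41% and lowered 8.49% without drug, and raised 13.2% and lowered 10.4% with drug. These counts use the same libraries as the interaction itself and only describe it.

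**Figure D1:**
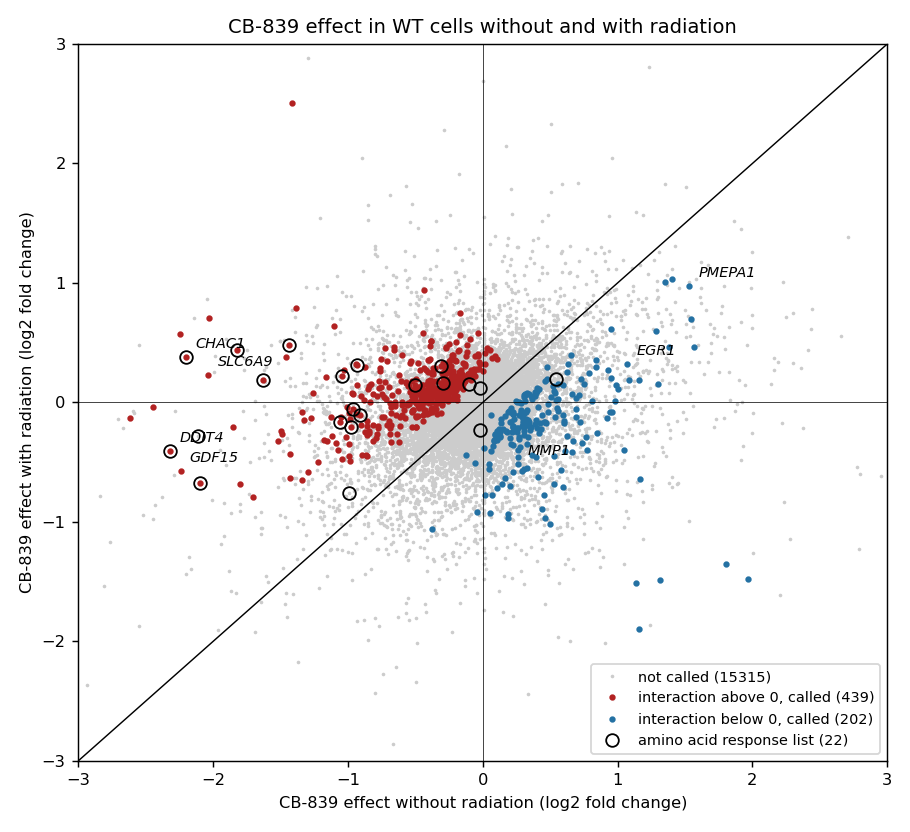
CB-839 effect (log2 fold change) in irradiated WT cells, vertical axis, against that in unirradiated WT cells, horizontal axis, for the 15956 genes tested, of which 14, with none called in the interaction, lie outside the axes. The 439 genes with a called positive interaction lie above the diagonal and mostly left of 0, the 202 with a called negative one below it, and rings mark the 22 tested genes of the amino acid response list.

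The count depended on single libraries and on the treatment of GC content. It was 365 without replicate 1 of the untreated cells, 371 without replicate 2 of CB-839, 423 and 411 without replicates 1 and 3 of radiation, and 372 without replicate 1 of the combination. Without both libraries that followed GC content it was 395, with 294 positive and 101 negative. With offsets for GC content and gene length it was 1153, with 549 positive and 604 negative, so that the excess of positive calls was not kept. Median GC content was 56.3% in the 439 genes, 44.8% in the 202 and 48.5% in all, and the interaction correlated with GC at r = 0.21 across genes. The part of GC content in the split between positive and negative calls was not tested further.

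The amino acid response driven by ATF4 had the highest median interaction of the 38 lists examined. Of its 22 tested genes 15 had a positive interaction, none had a negative one, and the median was 0.91, beside 0.00 in all genes. Without radiation CB-839 lowered 16 of the 22, against 8.44% of all genes (median log2 change -0.99). With radiation 2 were higher and 4 lower, against 4.99% and 4.53% of all genes, and the median was 0.15. Radiation lowered 7 and raised 3 of the 22 without drug (median -0.18), against 8.49% and 9.41% of all genes. With drug it raised 15 and lowered none (median 0.93), against 13.2% and 10.4% of all genes. The count of positive interactions was 13 to 15 when any 1 library was left out and 13 without both libraries that followed GC content. With GC and length offsets 16 were positive and 1 negative, and against a 1.5-fold change 5 were positive and 0 negative.

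CHAC1 (ENSG00000128965, chromosome 15, 40952962 to 40956519), a glutathione-degrading enzyme that ATF4 induces, had the largest positive interaction among the named stress genes. Its level was 18.4, 17.7 and 18.7 CPM in the 3 untreated libraries, 2.60, 4.80 and 4.50 CPM with CB-839, 13.2, 14.2 and 11.4 CPM after radiation and 19.6, 16.6 and 14.3 CPM after both. The drug-only libraries were the lowest and overlapped no other group, while the combined libraries overlapped the untreated ones. Multiplying the single effects gives 2.81 CPM for the combination, and the measured mean was 16.8 ± 2.68 CPM (SD, n = 3). The log2 interaction was 2.58 (SE 0.21, adjusted p = 7.02e-09).

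ASNS (ENSG00000070669, chromosome 7, 97852118 to 97872542), which makes asparagine from aspartate and glutamine, showed the same order at a lower level. It was at 3.13, 4.24 and 3.74 CPM untreated, 1.41, 0.8 and 1.35 CPM with CB-839, 2.94, 3.56 and 3.35 CPM after radiation and 4.45, 3.01 and 3.72 CPM after both. Only the drug-only libraries stood apart from the rest. The interaction was 1.82 (SE 0.34, adjusted p = 0.00139). TRIB3, a pseudokinase that restrains ATF4, was at 85.0, 86.1 and 90.2 CPM untreated, 44.0, 44.2 and 48.3 CPM with drug, 69.0, 66.6 and 66.2 CPM after radiation and 87.8, 82.0 and 81.3 CPM after both, with an interaction of 1.25. In irradiated cells CB-839 raised TRIB3 by 0.31 on the log2 scale, against -0.94 in unirradiated cells.

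ATF4 itself (ENSG00000128272, chromosome 22, 39519695 to 39522685) was highest in untreated cells. Its mRNA stood at 359, 400.3 and 392 CPM untreated, 181, 185 and 185 CPM with drug, 269.6, 266 and 253 CPM after radiation and 247, 235 and 222 CPM after both. The 4 groups did not overlap, and the drug-only libraries were the lowest. The interaction was 0.90 (SE 0.09, adjusted p = 6.57e-08). ATF3, a partner factor of the stress response, had an interaction of 1.42, with 0.846 to 1.18 CPM in the drug-only libraries and 2.38 to 3.91 CPM in the combined ones. For DDIT3, which encodes the pro-apoptotic factor CHOP, the value was 0.80 (adjusted p = 0.0181); this call was lost in 6 of 24 alternatives, among them the fit without both libraries that followed GC content. SESN2, an inhibitor of mTORC1 signalling, had an interaction of 1.26, and STC2, a secreted glycoprotein of the stress response, of 0.91.

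DDIT4 (ENSG00000168209, chromosome 10, 72273920 to 72276036), another mTORC1 inhibitor, reached its interaction by a different route. It was at 104, 108 and 111 CPM untreated, 21.6, 20.3 and 22.8 CPM with CB-839, 29.5, 26.8 and 25.4 CPM after radiation and 22.4, 20.4 and 18.8 CPM after both. The combined libraries overlapped the drug-only ones, and those of radiation alone lay just above both. The product of the single effects would be 5.47 CPM, and the interaction was 1.91 (SE 0.13, adjusted p = 3.58e-10). IGFBP3, a secreted binder of insulin-like growth factors, had the same shape: 109, 103 and 103 CPM untreated, 40.1, 47.5 and 43.6 CPM with drug, 47.1, 47.3 and 43.4 CPM after radiation and 48.5, 51.7 and 45.1 CPM after both. Its 3 treated groups overlapped one another and lay below every untreated library (interaction 1.34). EDIL3, an integrin ligand, and JUND, a subunit of AP-1, also had every treated library below every untreated one, with interactions of 1.31 and 1.01. The EDIL3 call was lost in 6 of 24 alternatives, among them the fit without both libraries that followed GC content. The interaction of USP27X, a deubiquitinase, was 1.37.

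**Figure D2:**
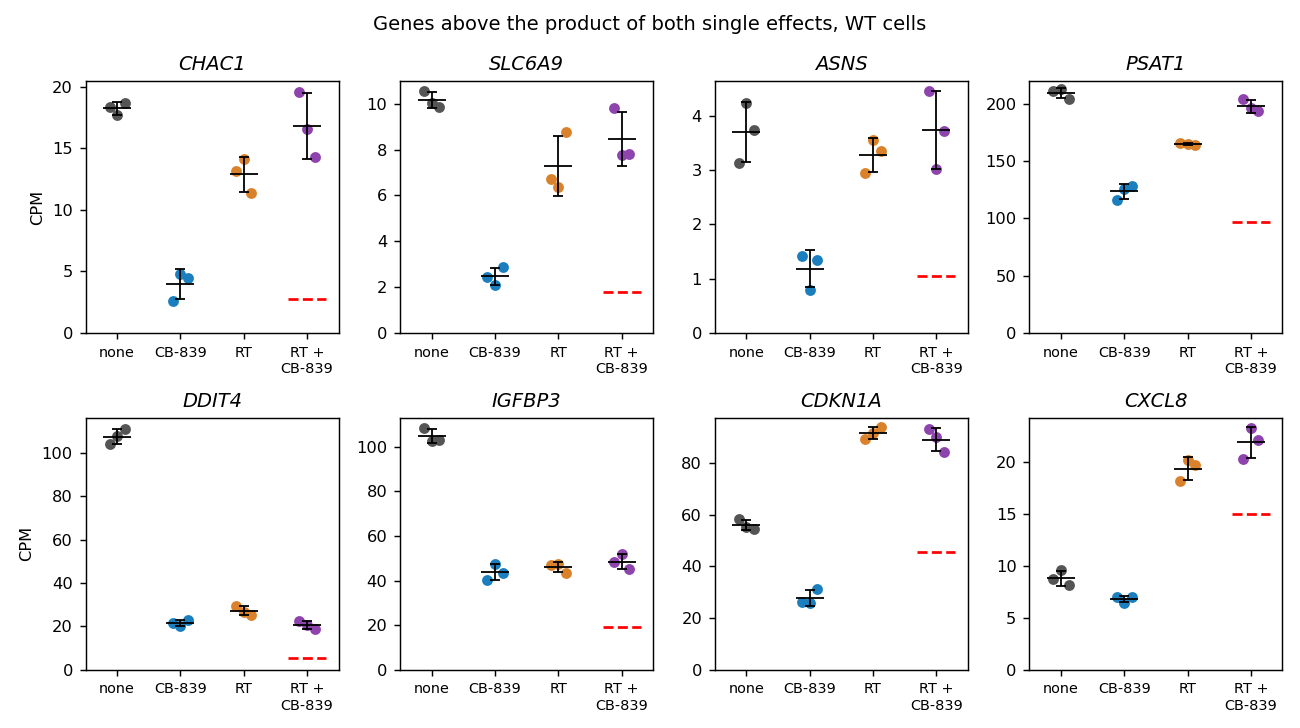
CPM in each of the 3 libraries (points) of the 4 WT groups, with mean and SD (black bars), for 8 genes with a positive interaction; the red dashed line is the CPM that the product of both single effects would give. For CHAC1, SLC6A9, ASNS and PSAT1 the drug-only libraries are the lowest and the combined ones are near the untreated level, whereas for DDIT4 and IGFBP3 all treated groups lie together.

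C/EBP-ATF response elements are the composite sites through which ATF4 acts, and stretches holding their core are shown for the stress genes that had the core wholly upstream of the start used. Promoters of 300 bases, 250 before to 50 after the first start listed per gene, were taken from RefSeq (GRCh38.p14). Each motif was searched on both strands by itself, so that matches to different motifs may overlap. The core searched for these elements was TGATGNAA. It was found in 4 of the 20 tested amino acid response genes with a promoter (20%), in 1003 of all 27305 promoters (3.67%), and in 4 of the 18 amino acid transporters with one (22.2%). The other motifs searched were the antioxidant response element core TGACNNNGC, AP-1 (TGANTCA) and a sterol regulatory element (TCACNCCAC). In the same 20 promoters of the amino acid response they were found in 7 (35%), 4 (20%) and 0, against 13.6%, 7.76% and 1.15% of all promoters. By share of the 20 promoters alone, the ATF4 core was not more frequent than the antioxidant core or AP-1. These motifs have unlike shares among all promoters, 3.67% for the ATF4 core, and enrichment over those shares was not tested. Each stretch shown has 100 bases in the direction of transcription, with the ATF4 core in capitals, and covers 250 to 151 bases before the RefSeq start for CHAC1, 114 to 15 for ASNS and 237 to 138 for ATF3. The stretches of CHAC1 and ASNS lie inside the gene spans of the deposited table, which begin further upstream. They are CHAC1 at chr15:40953221-40953320 on the plus strand, where the core reads on the opposite strand, ASNS at chr7:97872423-97872522 on the minus strand, and ATF3 at chr1:212565170-212565269 on the plus strand. A match describes letters and is not a binding site or a cause.
CHAC1: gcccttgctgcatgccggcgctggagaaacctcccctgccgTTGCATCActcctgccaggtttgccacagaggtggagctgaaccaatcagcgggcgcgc
ASNS: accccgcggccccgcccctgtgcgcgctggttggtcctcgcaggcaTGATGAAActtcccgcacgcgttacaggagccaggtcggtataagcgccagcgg
ATF3: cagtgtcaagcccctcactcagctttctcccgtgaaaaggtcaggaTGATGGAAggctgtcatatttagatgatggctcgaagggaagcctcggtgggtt

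Positive interactions were also called among genes that supply and charge amino acids. Of 17 tested enzymes of serine, glycine and one-carbon metabolism 8 had a positive interaction and none a negative one (median 0.18). PSAT1, a transaminase of serine synthesis that consumes glutamate, was at 211, 213 and 204 CPM untreated, 116, 126 and 128 CPM with drug, 166, 165 and 164 CPM after radiation and 204, 196 and 193 CPM after both. Each single treatment lay below the untreated libraries without overlap, and the combined libraries lay above radiation alone, close to the lowest untreated library (interaction 1.03, adjusted p = 3.5e-10). PHGDH, the first enzyme of that pathway, changed by -0.38 with drug alone and -0.50 with radiation alone on the log2 scale, and its combined libraries, at 313, 294 and 301 CPM, overlapped the untreated ones at 306, 301 and 289.9 CPM. PYCR1, which makes proline from a glutamate product, had an interaction of 1.06. Among aminoacyl-tRNA synthetases, which load tRNAs with amino acids, 7 of 20 were positive and none negative (median 0.09), and AARS (0.78), MARS (0.83) and CARS (1.04) were lower with CB-839 without radiation and not called with it. All 3 are cytosolic enzymes, for alanine, methionine and cysteine.

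Amino acid transporters had 7 positive and no negative calls among 22 tested (median 0.32). SLC6A9 (ENSG00000196517, chromosome 1, 43991500 to 44031467), a glycine importer, was at 10.6, 10.0 and 9.87 CPM untreated, 2.43, 2.12 and 2.87 CPM with CB-839, 6.74, 6.35 and 8.79 CPM after radiation and 9.81, 7.77 and 7.81 CPM after both. The drug-only libraries were below all others, radiation and the combination overlapped, and the untreated libraries were the highest. Its interaction was 2.26 (SE 0.21, adjusted p = 6.57e-08). SLC1A4, a carrier of alanine, serine and cysteine, was highest in the combination: 5.22, 4.98 and 5.11 CPM untreated, 4.01, 3.54 and 3.77 CPM with drug, 3.85, 5.13 and 4.48 CPM after radiation and 8.15, 9.52 and 8.17 CPM after both. The combined libraries exceeded every other library, and the interaction was 1.37 (adjusted p = 0.00371). The glutamine importer SLC1A5 had an interaction of 0.81, the large neutral amino acid carrier SLC7A5 of 0.62, and SLC7A11, which exchanges glutamate for cystine, of 0.98. Unlike SLC1A4, SLC7A11 stayed below its untreated level of 299, 284 and 296 CPM in every treated library, with 174, 169 and 147 CPM under CB-839, 175, 177 and 195 CPM after radiation and 169, 215 and 217 CPM after both.

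In glutamate metabolism, the interaction of GLUL, glutamine synthetase, was -0.02 (SE 0.07, adjusted p = 0.906). Of 20 tested glutamate-using genes 3 were positive, against 2.75% of all genes, and none negative (median 0.03): ASNS, the alanine transaminase GPT2 (0.96) and the aspartate transaminase GOT1 (0.33). PCK2, which makes phosphoenolpyruvate in mitochondria, had an interaction of 1.26. In the TCA cycle list 3 of 33 were positive and 1 negative (median -0.01), among them pyruvate carboxylase, PC (0.63), and IDH2 (0.52). The 3 positive calls became 1 without both libraries that followed GC content, and also without replicate 1 or 2 of the untreated cells, replicate 1 of CB-839, replicate 1 or 3 of radiation or replicate 1 of the combination.

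Of 31 p53 targets tested 4 were positive, against 2.75% of all genes, and none negative (median 0.05). They were CDKN1A, BBC3, GDF15 and SESN2, and SESN2 is also on the amino acid response list. Other lists share genes too, so the counts of different lists are not separate. CDKN1A (ENSG00000124762, chromosome 6, 36676460 to 36687339) was at 58.1, 55.1 and 54.4 CPM untreated, 26.3, 25.7 and 31.2 CPM with CB-839, 89.3, 91.6 and 94.0 CPM after radiation and 93.0, 89.9 and 84.0 CPM after both. The drug changed it by -1.01 on the log2 scale in unirradiated cells, and after radiation libraries with and without drug overlapped (drug effect -0.04). Its interaction was 0.97 (SE 0.12, adjusted p = 4.13e-06). BBC3, which encodes the pro-apoptotic protein PUMA, was at 5.28, 5.39 and 4.94 CPM untreated, 2.54, 1.31 and 1.80 CPM with drug, 3.39, 3.45 and 3.65 CPM after radiation and 4.93, 4.97 and 3.77 CPM after both, with an interaction of 1.84. GDF15, a secreted stress hormone, fell from 21.3, 22.5 and 20.3 CPM to 4.17, 5.03 and 4.33 CPM with drug and was at 21.0, 20.2 and 18.6 CPM after radiation and 14.3, 13.0 and 12.9 CPM after both. Its combined libraries lay between drug alone and the other groups (interaction 1.67). MDM2, the ubiquitin ligase that p53 induces against itself, was not called (-0.11, adjusted p = 0.675).

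The called interactions of NRF2 targets were all positive. In the glutathione and thioredoxin list 4 of 12 were positive (median 0.26), and in the list of detoxification, iron and transport genes 9 of 31 (median 0.38), which became 5 without replicate 2 of CB-839. NQO1, a quinone reductase, was at 351, 357 and 354 CPM untreated, 326, 355 and 402 CPM with drug, 294, 297 and 283 CPM after radiation and 414, 399 and 386 CPM after both, so the drug raised it after radiation (0.45) and not before (0.03, adjusted p = 0.841). The interactions of the autophagy receptor SQSTM1 (0.61) and ferritin heavy chain FTH1 (0.63) were of similar size, and in both genes the combined libraries were higher than all others. FTH1, like RPL26, KRT17, KRT18 and HSPA8 below, has near-identical pseudogene copies, and its reads may be split among them. GCLM, the modifier subunit of glutamate-cysteine ligase, TXNRD1, thioredoxin reductase, and MAFG, a partner of NRF2, had interactions of 0.38, 0.32 and 0.37. NFE2L2, which encodes NRF2, and KEAP1 were not called (-0.04 and 0.02). Of 13 NADPH and pentose phosphate genes 2 were positive, among them PGD (0.30), whose call held in 12 of 24 alternatives.

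Hypoxia and endoplasmic reticulum stress genes had positive calls only. Of 31 hypoxia and glycolysis genes 5 were positive (median 0.17), and 3 without replicate 1 of the untreated cells, replicate 1 or 2 of CB-839 or replicate 3 of radiation. NDRG1, a growth-arrest gene induced by hypoxia, was at 81.0, 77.9 and 79.4 CPM untreated, 26.1, 27.0 and 31.3 CPM with drug, 63.3, 66.8 and 61.1 CPM after radiation and 55.8, 52.3 and 54.3 CPM after both. The drug changed NDRG1 by -1.50 on the log2 scale without radiation, and the effect with radiation was -0.24 (adjusted p = 0.0611). The angiogenic factor VEGFA (0.77) and the glucose carrier SLC2A3 (0.84) had smaller interactions. In the unfolded protein response 8 of 22 were positive and none negative (median 0.30), led by HERPUD1, a factor of protein degradation at that membrane (1.05), the transcription factor XBP1 (0.95) and the chaperone HSPA5 (0.58). That count was 5 without both libraries that followed GC content, 5 without replicate 2 of the untreated cells or of CB-839, and 4 without replicate 3 of radiation or replicate 1 of the combination.

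**Figure D3:**
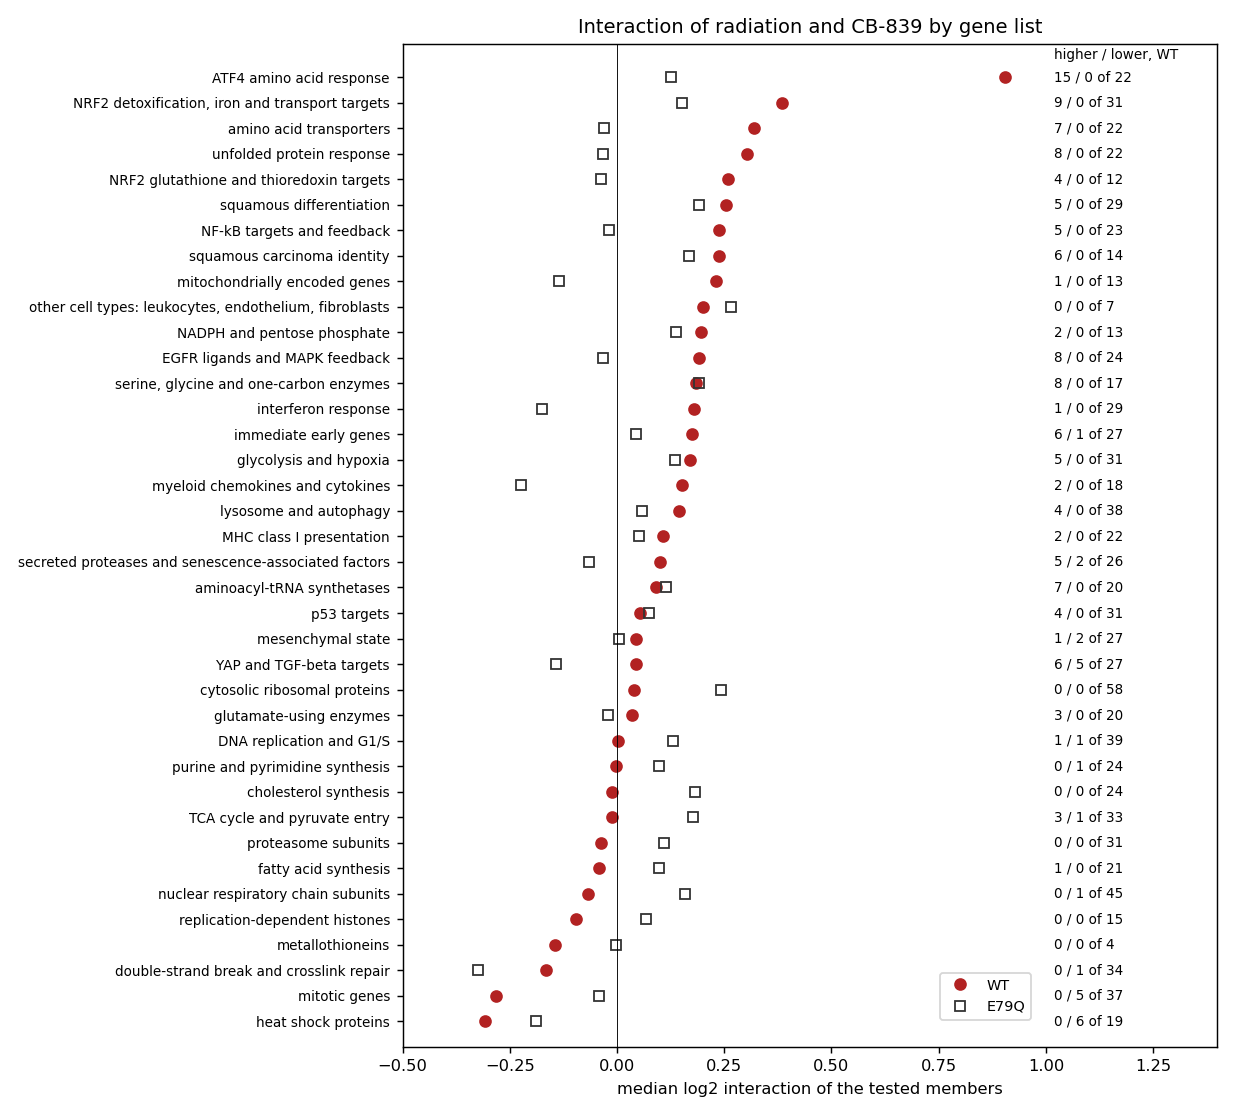
Median log2 interaction of the tested members of 38 gene lists in WT cells (red circles) and E79Q cells (open squares), with the number of members called positive and negative in WT cells at the right. The amino acid response list has the highest median in WT cells, 0.91, and a median of 0.13 in E79Q cells.

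Of 18 myeloid chemokines and cytokines tested radiation raised 12 without drug and 14 with it, against 9.41% and 13.2% of all genes. A positive interaction was called for 2, against 2.75% of all genes, and a negative one for none (median 0.15). CXCL8, which attracts neutrophils, was at 8.74, 9.57 and 8.11 CPM untreated, 7.0, 6.46 and 6.98 CPM with CB-839, 18.1, 20.2 and 19.7 CPM after radiation and 20.3, 23.3 and 22.1 CPM after both. Both irradiated groups exceeded both unirradiated ones, the drug-only libraries were the lowest, and the interaction was 0.55 (SE 0.13, adjusted p = 0.0126). LIF, a cytokine of the IL6 family, had an interaction of 0.57. For CXCL1 the value was 0.05 (adjusted p = 0.889), for CSF2 0.03 (adjusted p = 0.976), for CSF1 0.30 (adjusted p = 0.29) and for IL6 0.62 (SE 0.22, adjusted p = 0.12). The gene of the checkpoint ligand PD-L1, CD274, was not called either (-0.13, adjusted p = 0.725).

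NF-kB targets and feedback genes had 5 positive calls among 23 (median 0.24), with the adhesion molecule ICAM1 (0.52), TNFAIP2 (0.57) and the subunit gene NFKB2 (0.42) leading. ICAM1 was at 60.2, 58.3 and 60.5 CPM untreated, 35.6, 32.0 and 36.1 CPM with drug, 102, 106 and 94.1 CPM after radiation and 82.5, 86.5 and 82.6 CPM after both. No 2 of its 4 groups overlapped, and the drug effect on it was smaller after radiation. EGFR ligands and MAPK feedback genes had 8 positive calls among 24 (median 0.19). The ligand EREG lay at 46.6, 50.9 and 49.7 CPM untreated and between 28.2 and 33.9 CPM in all treated libraries (interaction 0.74), while the ligand AREG fell with drug alone only, to 91.2, 93.0 and 97.5 CPM from 117, 125 and 131 CPM (0.56). ERRFI1, a feedback inhibitor of EGFR, had an interaction of 0.52. Among 27 immediate early genes 6 were positive and 1 negative: KLF4, a factor of epithelial differentiation, was positive at 1.18, FOSL2 of the AP-1 family at 0.42, and EGR1 was negative.

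Squamous genes with a called interaction were all positive. In the differentiation list 5 of 29 were positive (median 0.26), and in the identity list 6 of 14 (median 0.24). The basal keratin gene KRT17 was at 458, 445 and 448 CPM untreated, 251, 251 and 289 CPM with drug, 293, 290.1 and 264 CPM after radiation and 321, 303 and 297 CPM after both (interaction 0.89). All treated libraries lay below the untreated ones, and the combined libraries were not the lowest. For KLK10, a secreted kallikrein, the combined libraries were the lowest, at 27.2, 26.8 and 28.2 CPM against 76.3, 71.5 and 66.8 CPM untreated, yet above the product of 15.3 CPM (0.84). The receptor NOTCH3 had an interaction of 1.14 and the keratin KRT18 of 0.42. LAMB3, a laminin chain of the epithelial basement membrane, rose with radiation to 1265, 1342 and 1275 CPM and further with both, to 1773, 1693 and 1679 CPM, from 757, 762 and 801 CPM, although CB-839 alone left it at 768, 739 and 755 CPM (0.44).

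The largest negative interactions among genes at sufficient levels included genes with an upward drug effect that was called without radiation and not after it. CB-839 raised NEXN, RAB30, MYH15, DGAT2 and INSYN2B in unirradiated cells, whereas after radiation it lowered RAB30 and DOCK4 and had no called effect on the others. NEXN (ENSG00000162614, chromosome 1, 77888513 to 77943895), an actin-binding protein, was at 5.61, 5.04 and 5.33 CPM untreated, 11.5, 11.7 and 9.85 CPM with drug, 8.96, 8.43 and 11.8 CPM after radiation and 4.69, 9.15 and 8.32 CPM after both. Its 3 combined libraries spanned the range from below the untreated libraries to the level of radiation alone, and the interaction was -1.45 (SE 0.32, adjusted p = 0.0076). DOCK4, an activator of small GTPases, was at 8.56, 9.81 and 9.80 CPM after radiation and 5.17, 5.55 and 5.74 CPM after both, without overlap (interaction -1.23). RAB30, a GTPase of the Golgi, moved alike, from 7.55, 10.3 and 7.77 CPM to 4.22, 5.66 and 5.89 CPM (-1.30). MYH15, a myosin gene, had -1.11, DGAT2, which makes triglyceride, -1.06 and INSYN2B -1.15. The MYH15 call was lost without both libraries that followed GC content, and that of DGAT2 without replicate 1 of the untreated cells. No negative interaction in WT cells passed the test against a 1.5-fold change.

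Several of the other large negative values rested on few counts or on single libraries. Those of NOG, an antagonist of bone morphogenetic proteins (-1.10), COL8A1, a collagen (-1.16), and TAX1BP3 (-1.14) passed the test in 9, 12 and 15 of 24 alternatives and were lost without both libraries that followed GC content. RPL26, a ribosomal protein, was at 42.3, 34.7 and 48.1 CPM untreated, 51.5, 70.9 and 75.1 CPM with drug, 57.3, 53.5 and 51.7 CPM after radiation and 41.3, 42.0 and 38.7 CPM after both (-1.07). The separate list of 58 cytosolic ribosomal proteins, which RPL26 is not on, had no call in either direction and a median of 0.04. ATP5ME, a subunit of the mitochondrial ATP synthase, had an interaction of -1.22.

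MMP1 (ENSG00000196611, chromosome 11, 102789920 to 102798160), an interstitial collagenase, was at 185, 203 and 205 CPM untreated, 236, 230.4 and 246 CPM with drug, 642, 656 and 679 CPM after radiation and 454, 468 and 456 CPM after both. No 2 groups overlapped: the drug raised MMP1 by 0.26 on the log2 scale without radiation and changed it by -0.52 with it, and the interaction was -0.78 (SE 0.08, adjusted p = 7.96e-08). MMP3, stromelysin, had -0.89. In the same list of 26 tested genes 5 were positive, among them SERPINB2, an inhibitor of plasminogen activation (0.62), and 2 negative. PMEPA1, which TGF-beta induces, was at 24.0, 22.1 and 26.8 CPM untreated, 68.4, 70.3 and 72.0 CPM with drug, 65.6, 74.1 and 65.9 CPM after radiation and 143, 133 and 127 CPM after both. Its combined libraries were the highest and still fell short of the product of 198 CPM (-0.56). LTBP2, a latent TGF-beta binding protein (-0.60), and ANKRD1, a YAP target (-0.45), were negative too, while the YAP target AMOTL2 was positive (0.35). The YAP and TGF-beta list as a whole had 6 positive and 5 negative calls among 27 (median 0.04). The 6 became 3 without both libraries that followed GC content, replicate 1 of the untreated cells, replicate 2 of CB-839 or replicate 3 of the combination. The 5 became 3 in the same fits apart from the last, and without replicate 2 or 3 of radiation or replicate 1 of the combination. In the mesenchymal list 1 of 27 was positive, the integrin gene ITGA5 (0.50), and 2 were negative, TPM1, a tropomyosin (-0.35), and FN1, fibronectin (-0.26, called in 9 of 24 alternatives).

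EGR1 (ENSG00000120738, chromosome 5, 138465490 to 138469315), an early growth response factor, was at 71.8, 80.2 and 75.8 CPM untreated, 160.2, 161 and 157 CPM with drug, 112, 113 and 111 CPM after radiation and 127, 142 and 152 CPM after both. Every treated library exceeded the untreated ones, and the combination lay below drug alone. Its interaction was -0.75 (SE 0.09, adjusted p = 2.52e-06). Heat shock proteins had 6 negative and no positive calls among 19 (median -0.31). HSPH1 rose with drug alone, to 493, 492 and 443 CPM from 363, 390.4 and 378 CPM, and was at 289, 352 and 355 CPM after both (-0.63). The co-chaperone CHORDC1 (-0.67) and the constitutive chaperone HSPA8 (-0.28) were the other leading members. The 6 became 2 without both libraries that followed GC content, without replicate 1 of the untreated cells, replicate 2 of CB-839 or replicate 1 of the combination, 3 without replicate 3 of radiation, and 11 with GC and length offsets.

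Mitotic genes had 5 negative and no positive calls among 37, with a median of -0.28 and a positive sign in 1. Without radiation CB-839 raised 16 and lowered none of the 37, against 6.35% and 8.44% of all genes. With radiation it raised 1 and lowered 4, against 4.99% and 4.53% of all genes. KIF20A, a kinesin of cell division, was at 106, 107 and 112 CPM untreated, 136, 138 and 144 CPM with drug, 117, 108 and 111 CPM after radiation and 117, 110.0 and 114 CPM after both (-0.34). Its drug-only libraries were the highest, and the other groups overlapped. CENPE (ENSG00000138778, chromosome 4, 103105806 to 103198409), a kinesin of the kinetochore, had another pattern: 59.7, 60.8 and 59.6 CPM untreated, 76.4, 77.8 and 50.7 CPM with drug, 61.8, 53.3 and 70.4 CPM after radiation and 23.5, 37.9 and 36.1 CPM after both, where only the combined libraries stood apart, below the rest (interaction -1.12, SE 0.26, adjusted p = 0.0107). The mitotic kinase AURKA (-0.25) passed in 11 of 24 alternatives. The count of 5 was 2 without replicate 1 of the untreated cells, replicate 2 of CB-839, replicate 1 or 3 of radiation, or replicate 1 of the combination. It was 3 without replicate 2 or 3 of the untreated cells, replicate 2 of radiation, replicate 3 of the combination or both libraries that followed GC content, and 16 with GC and length offsets.

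**Figure D4:**
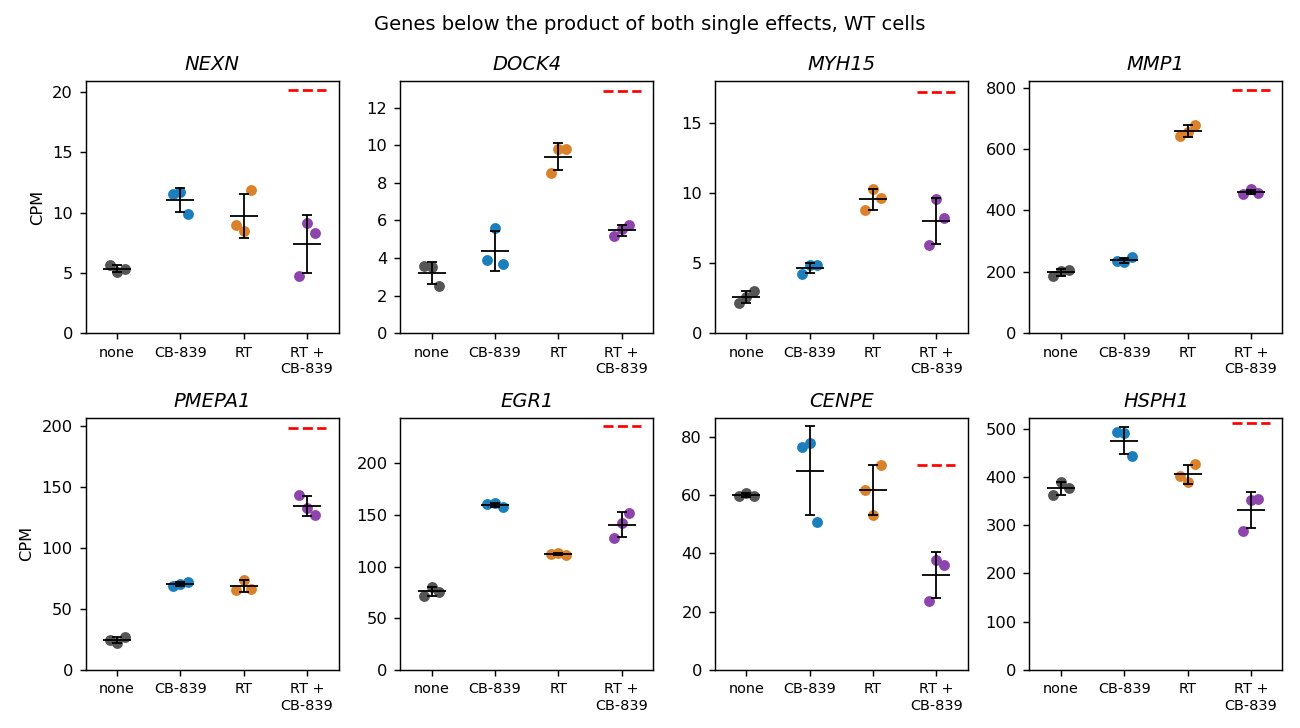
CPM in each of the 3 libraries (points) of the 4 WT groups, with mean and SD (black bars), for 8 genes with a negative interaction; the red dashed line is the CPM that the product of both single effects would give. The combined libraries of all 8 genes lie below that line; for CENPE they alone are low, and for PMEPA1 they are the highest of the 4 groups.

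The remaining lists ranged from no call to 4. Cholesterol synthesis (24 tested) and proteasome subunits (31) had no call, and SQLE, an enzyme of cholesterol synthesis, had a value of -0.03 (SE 0.07). DNA replication had 1 positive and 1 negative call among 39, double-strand break and crosslink repair 1 negative among 34, nuclear respiratory chain subunits 1 negative among 45 and interferon response genes 1 positive among 29. Of 38 lysosome and autophagy genes 4 were positive, against 2.75% of all genes, also without any 1 library, among them the protease CTSD (0.60) and the autophagy kinase ULK1 (0.52).

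The same interaction was fitted in E79Q cells, from libraries that the WT value does not share. There 2312 genes were called (7.83% of tested genes positive, 6.66% negative), and 243 were called in both genotypes, which is 37.9% of the WT calls and 10.5% of the E79Q calls. Of these 225 had the same direction and 18 the opposite one. The median interaction in E79Q cells was 0.21 for the 439 genes positive in WT and -0.27 for the 202 negative ones, beside -0.04 in all genes. Across all genes the interactions of the genotypes correlated at r = 0.19. Both correlated with GC content across genes, at r = 0.21 in WT and 0.29 in E79Q cells. The part of GC content in the shared direction was not tested. The difference between the interactions was called for 176 genes (1.1% of those tested), higher in WT cells for 124 (0.777% of tested genes) and lower for 52 (0.326%), and 97 of them were among the 641. With GC and length offsets that balance reversed, to 221 higher and 293 lower (215 and 241 with the replicate block added), and with DESeq2 it was 166 and 139. The E79Q count depended on single libraries. It was 829 without replicate 1 of untreated E79Q cells, 1017 without replicate 2 of CB-839, 1382 without replicate 1 or 2 of radiation, 4289 without replicate 1 of the combination and 1195 without its replicate 2. Those combined libraries had the strongest relation to GC content of all 24 (r = -0.38 and 0.48 across genes). The count of differences was 296 without replicate 1 of the combined E79Q group.

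Of the 22 amino acid response genes 8 had a larger interaction in WT cells and none a smaller one. Over all genes the shares were 0.777% and 0.326%. The E79Q median of the list was 0.13. CHAC1 had an interaction of 0.16 in E79Q cells, with mean levels of 11.3 ± 1.30 CPM untreated, 17.5 ± 1.27 CPM with drug, 16.7 ± 0.998 CPM after radiation and 28.6 ± 3.82 CPM after both (SD, n = 3), and the difference from WT cells was 2.43 (SE 0.28, adjusted p = 2.04e-05). ASNS (2.14), SLC6A9 (2.26), GDF15 (1.39) and CDKN1A (1.19) also differed. Of the 20 synthetase genes tested 7 differed, all higher in WT cells, against 0.777% of all genes. These were the 7 called in the WT interaction. The difference uses the same WT libraries as that interaction, so genes called in it are favoured. The inhibin chain INHBE had the largest difference of the named genes (3.49, adjusted p = 0.0343), at levels under 2 CPM in every WT library, and its WT interaction (2.17) was lost in 12 of 24 alternatives.

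CXCL8 had interactions of opposite sign, 0.55 in WT and -0.77 in E79Q cells, both called, with a difference of 1.32 (SE 0.17, adjusted p = 4.13e-05). For CXCL1 the difference was 1.06, with the E79Q interaction at -1.01 and no call in WT cells. Differences in the other direction were found for INKA1 (-1.55), DPF3 (-1.20), ZNF488 (-0.95) and the surface protein CD24 (-0.88), and for EGR1 (-0.79). By contrast the interactions of KLK10, KRT17, NEXN and CENPE were 1.13, 0.78, -1.29 and -1.18 in E79Q cells, each called in the same direction as in WT cells, and their differences of -0.29, 0.11, -0.16 and 0.06 were not called (SE 0.17, 0.15, 0.46 and 0.36).

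**Figure D5:**
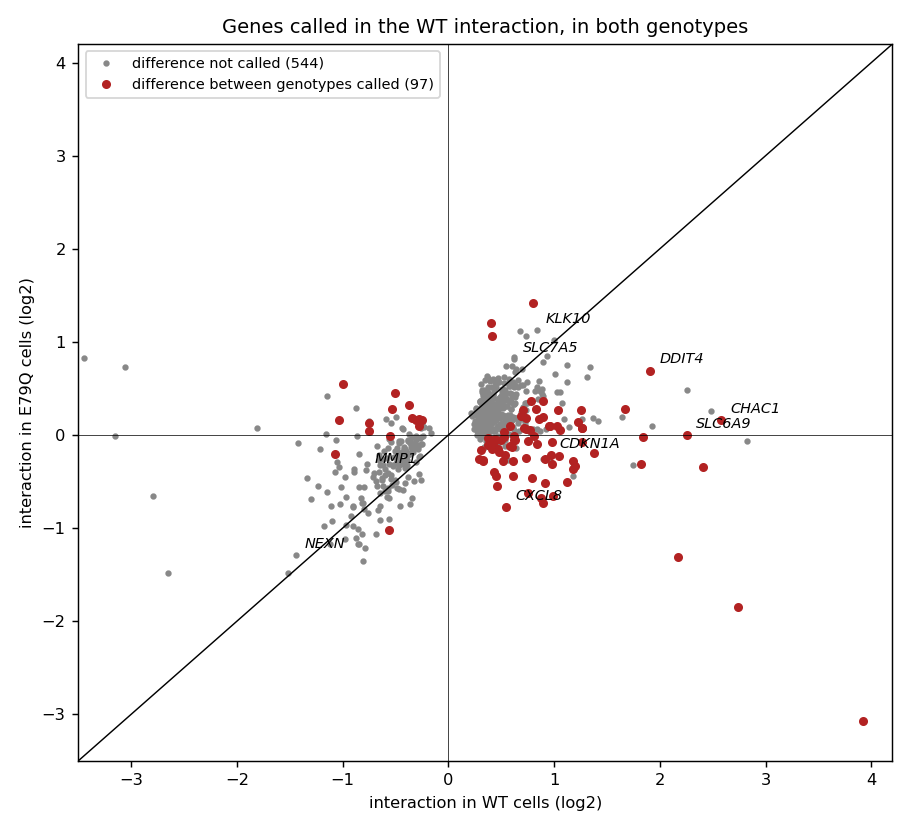
Log2 interaction in E79Q cells, vertical axis, against that in WT cells, horizontal axis, for the 641 genes called in the WT interaction; red points are the 97 whose difference between genotypes was called and the line marks equal values. CHAC1 and SLC6A9 lie near 0 on the vertical axis, whereas NEXN and KLK10 lie near the line.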

How the data were processed

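The authors deposited a table of raw counts of reads per gene for 24 RNA libraries, with no normalization. STAR, HTSeq and GRCh38 are named per the submitters' processing notes. What each tool did, its version, the strand setting and the annotation were not given in those sources, so reads of overlapping antisense genes cannot be told apart. The deposited gene length column holds other values, in base pairs. All 58735 gene IDs and coordinates matched GENCODE release 29, and 58708 gene names did. Gene symbols are those of the table. The column names of the combined E79Q libraries were shortened and were matched through the sample titles.

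The analysis used edgeR 4.0.16 in R 4.3.3, with limma 3.58.1 and DESeq2 1.42.0 for alternatives. The edgeR filter over all 8 groups kept 15956 of 34983 genes with any read. After TMM scaling, the quasi-likelihood model held 1 mean for each group over the 24 libraries, with 16 residual degrees of freedom and a common biological coefficient of variation of 7.19%. Genes with a Benjamini-Hochberg adjusted p under 0.05 over all 15956 genes were called. An exact test of 3 libraries against 3 cannot give a p under 0.1 for a single gene. The calls do not come from such a test. They rest on the model's spread, estimated for each gene over all 24 libraries and moderated over genes by edgeR. On simulated data made from these counts the test of the interaction in WT cells recovered 56.7%, 89.6% and 98.5% of genes changed 1.5, 2 and 4-fold. The changed genes, 67, 67 and 66 among 15956, were drawn from genes with a mean over 2 CPM, so the rates do not cover genes of lower level. Of the 174 calls made, 11 were false. Simulated counts were drawn independently for each gene, without the departures linked to GC content seen in these libraries. The rates do not cover such departures.

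The comparison, the gene lists and the rule for named genes were chosen with earlier results of these data known. The 12 largest positive and 12 largest negative interactions could be named, among called protein coding genes with a symbol and a mean log2 CPM of at least 1 over the WT libraries. Each list gave the 3 called members of smallest p in either direction, or, where none was called, its 2 members of highest expression. The 4 largest differences each way between genotypes were added, among genes called in both tests, with 20 genes of NRF2, p53, glutamine metabolism and secreted signals that could be named in any comparison. Not every permitted gene is named, and some are not reported here.

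Alternatives were RLE and upper-quartile scaling, DESeq2, limma-voom, no filter on low counts, at least 1 CPM in 12 libraries, each genotype fitted alone and a 1.5-fold threshold test. Others were a block for the replicate number, offsets for GC content and length (lowess span 0.3, GC known for 99.97% of genes), and omission of the 2 WT libraries that followed GC content or of any single library. Leaving out single E79Q libraries, and recounting the gene lists under each alternative, were chosen after seeing the data. Promoters were matched by symbol for 11096 of the tested genes (69.5%), so motif shares are given only for lists with a promoter for at least 80% of genes.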

Additional observations from a re-analysis of the deposited data

Results flagged for a closer look

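The interaction of radiation and CB-839 differed between WT and E79Q cells for 176 genes, by a test of the difference itself in edgeR's quasi-likelihood fit (adjusted p under 0.05). This is 1.1% of the genes tested. Of the 105 genes named in the report 45 were among the 176, at adjusted p between 1.06e-08 and 0.043. The value was higher in WT cells for 35 of the 45 and lower for 10. Over all genes it was higher for 124 and lower for 52, and with GC and length offsets for 221 and 293. Against a 1.5-fold change 11 differences were called. The differences of the 45 genes were not refitted one by one under any alternative. Named genes were picked partly by their WT interaction or by this difference itself. The 45 of 105 is therefore no measure of how common differences are. Values are log2 interactions in WT minus those in E79Q cells.

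In the amino acid and stress response the differences were those of CHAC1 (2.43), ASNS (2.14), DDIT4 (1.22), SESN2 (1.19), STC2 (1.17), TRIB3 (0.98), ATF4 (0.53) and INHBE (3.49). Enzymes and transporters of amino acids with a difference were SLC6A9 (2.26), SLC1A4 (1.56), SLC7A11 (1.29), SLC1A5 (0.82), PCK2 (1.18), PSAT1 (0.93), PHGDH (0.71) and GPT2 (0.86), and among tRNA synthetases CARS (0.77), MARS (0.55) and AARS (0.42). Glutamine synthetase, GLUL, had a lower interaction in WT cells (-0.39). The p53 targets BBC3 (1.86), GDF15 (1.39) and CDKN1A (1.19) differed, as did the hypoxia genes NDRG1 (1.33) and VEGFA (0.71), the endoplasmic reticulum genes HERPUD1 (1.0), XBP1 (0.86) and HSPA5 (0.69) and the NRF2 target GCLM (0.48). Among the other named genes, interactions were higher in WT cells for KLF4 (1.55), CXCL8 (1.32), CXCL1 (1.06), SERPINB2 (0.63), ICAM1 (0.55), ERRFI1 (0.49) and LAMB3 (0.48). Lower interactions in WT cells were those of INKA1 (-1.55), DPF3 (-1.20), ZNF488 (-0.95), CD24 (-0.88), RPL26 (-0.87), EGR1 (-0.79), KIF20A (-0.52), AURKA (-0.41) and HSPA8 (-0.37). Groups of 3 libraries were not tested for single outlying samples.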

How the results depend on the processing

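The count of genes in the WT interaction, 641, became 997 without the filter (435 positive, 562 negative) and 1400 with WT libraries alone (729 and 671). When tested against a 1.5-fold change it was 18 (18 positive, 0 negative). With GC and length offsets it was 1153 (549 and 604), and without the 2 libraries that followed GC content 395. It was within 1.5 times under RLE (637), upper-quartile scaling (632), limma-voom (648), DESeq2 (906) and the 1 CPM filter (739). Without single libraries it ranged from 365 to 715. The count of differences between genotypes, 176, became 305 with DESeq2, 11 against 1.5-fold, 514 with offsets and 126 to 296 without single libraries. Against a 1.5-fold change the drug effects fell to 128 genes without and 13 with radiation, the radiation effects to 212 without and 161 with drug, and the E79Q interaction to 14. The drug effect with radiation, 1520, was 2468 with WT libraries alone, 662 without the 2 libraries that followed GC content and 660 to 1540 without single libraries; the radiation effect with drug was 2432 without those 2. The E79Q interaction was 839 with its libraries alone and 829 to 4289 without single ones. The cause of these shifts was not tested.

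Replicate numbers did not pair the WT libraries: over 18 same-numbered pairs the correlation of deviations was -0.08 to 0.05, and none of the libraries correlated best with its own number. With the replicate block the interaction count was 510 in WT and 145 for the difference; with block and offsets the counts were 1053 and 456.

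No alternative reversed the direction of a named gene's called interaction in WT cells. Differences of named genes between genotypes were not refitted in this way. Of 2520 refitted WT interactions of named genes 2324 stayed on the same side of the threshold and 196 lost the call. At this depth the simulation, which changed no genes of low level and held no departures linked to GC content, recovered 56.7% of 1.5-fold interactions. Smaller ones were therefore often not detectable.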
